A study of Mus musculus with 16 samples.

Results

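Immune checkpoint ligands are surface or secreted proteins that bind inhibitory receptors on immune cells. The report follows 8 mouse genes that code for such ligands, chosen by name: Cd274, Pdcd1lg2, Cd47, Lgals9, Pvr, Nectin2, Cd276 and Vsir. Of these, 7 were analysed among 24334 genes, and Pdcd1lg2 is not analysed here. RNA was sequenced from tumour cells enriched out of mice bearing LLC1, the Lewis lung carcinoma line, after 16 days of treatment. There were 16 libraries in 4 groups of 4. In the TMP195 group, mice received 50 mg/kg of TMP195, an inhibitor of class IIa histone deacetylases. In the MYCi975 group they received 50 mg/kg of MYCi975, an inhibitor of the transcription factor MYC. The Combo group received both compounds at doses in combination that are not stated, and the Vehicle group received DMSO. All groups share the same tumour line, and the cells were enriched rather than pure. Whether the 4 libraries of a group stem from different animals is not stated, so the p-values reflect library-to-library spread that may be technical in part. The study asked which transcriptional changes the treatments induce in tumour cells in the animal.

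Tumour cells show PD-L1, the product of Cd274, to the receptor PD-1 on T cells, and interferon gamma is the best known inducer of this gene. CD47 binds SIRP alpha on macrophages and restrains phagocytosis. Galectin-9 (Lgals9) is a secreted lectin that binds TIM-3, and it too is an interferon-induced gene in several cell types. PVR and Nectin-2 are adhesion molecules shared by the inhibitory receptor TIGIT and the activating receptor DNAM-1. B7-H3 (Cd276) is a B7 family protein found on many solid tumours, and VISTA (Vsir) is a B7-like protein best known from myeloid cells.

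The start regions of Cd274 and Lgals9 are shown because these genes followed the interferon-induced genes across the libraries. The letters come from RefSeq on GRCm38.p6 and run from 120 bases before to 30 bases after the start of the gene, on the gene's own strand. Cd274 lies at chr19:29367318-29367467 on the plus strand, and Lgals9 at chr11:78984895-78985044 on the minus strand. Capitals mark the core of the interferon-stimulated element, GAAANNGAA, which in these matches reads on the opposite strand.
Cd274: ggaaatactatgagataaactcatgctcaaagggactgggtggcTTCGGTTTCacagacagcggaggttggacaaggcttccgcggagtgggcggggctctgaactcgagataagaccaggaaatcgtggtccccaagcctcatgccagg
Lgals9: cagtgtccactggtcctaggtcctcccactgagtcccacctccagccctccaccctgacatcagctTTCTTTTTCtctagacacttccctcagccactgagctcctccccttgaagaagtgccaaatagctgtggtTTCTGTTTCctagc

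The match in Cd274 begins 76 bases before the start. The Lgals9 matches begin 54 bases before the start and at base 17 after it. Windows from 250 bases before to 50 bases after the start were available for 6 of the 7 genes analysed. The element core was in the windows of Cd274 and Lgals9 and not in those of Cd47, Nectin2, Cd276 or Vsir. On both strands it occurs in 8.57% of 27025 such windows, 1 per gene. Neither the MYC E-box CACGTG (7.24% of windows) nor the gamma-activated site TTCNNNGAA (8.47%) was in any of the 6. The letters of a match do not show that a factor binds there.

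Values are the authors' variance-stabilised expression values, which lie close to a log2 scale and share a lowest value of 4.84 in every library. They are not scaled by transcript length, so levels are compared between groups and not between genes. The labelled cell type was set against defining markers. The genes listed as mesenchymal tumour markers, Vim (16.69 to 17.54) and Cd44 (13.28 to 13.73), were high in all 16 libraries. The keratins Krt8 and Krt18 lay between 10.17 and 11.45, while the keratin Krt19 ran from 5.18 to 7.37. The epithelial markers Epcam and Cdh1 were below the filter, and Epcam was at the lowest value in 9 libraries. Of the fibroblast and pericyte genes, Dcn (13.52 to 14.89), Lum (11.43 to 13.76) and Pdgfra (12.37 to 13.24) were high in all libraries, Col1a1 ran from 9.14 to 12.31 and Pdgfrb from 6.32 to 9.26, and Rgs5 was below the filter. The pan-leukocyte gene Ptprc lay between 5.81 and 8.95. Of the other leukocyte markers, Arhgdib was the highest (8.56 to 10.57), and Cd52 and Rac2 were below the filter. In a bulk sample, fewer cells of a type and less RNA per cell cannot be told apart. On the first principal component (21.2% of variance), replicate 4 of TMP195, MYCi975 and Vehicle stood apart from the rest, with scores of 32.0, 26.6 and 33.2.

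No difference of the 7 ligand genes passed the test under any treatment. Genes entered the test when 4 or more libraries exceeded the lowest value by 1 log2 unit, which held for 15715 genes and for all 7 ligand genes in all 16 libraries. With limma, 0 of 7 ligand genes passed an adjusted p under 0.05 in TMP195, MYCi975 or Combo against Vehicle, where 0% of all tested genes passed. At an unadjusted p under 0.05 the count was again 0 of 7 in each, against 4.88% of tested genes for TMP195, 3.03% for MYCi975 and 4.09% for Combo. For every ligand gene the range of each treated group overlapped that of Vehicle. The share of all tested genes with such overlap was not counted, so the overlap cannot be called particular to the ligand genes. The 3 comparisons share the Vehicle libraries. A difference missing the threshold does not show that levels were equal, and the intervals below give the sizes that these libraries allow.

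**Figure D1:**
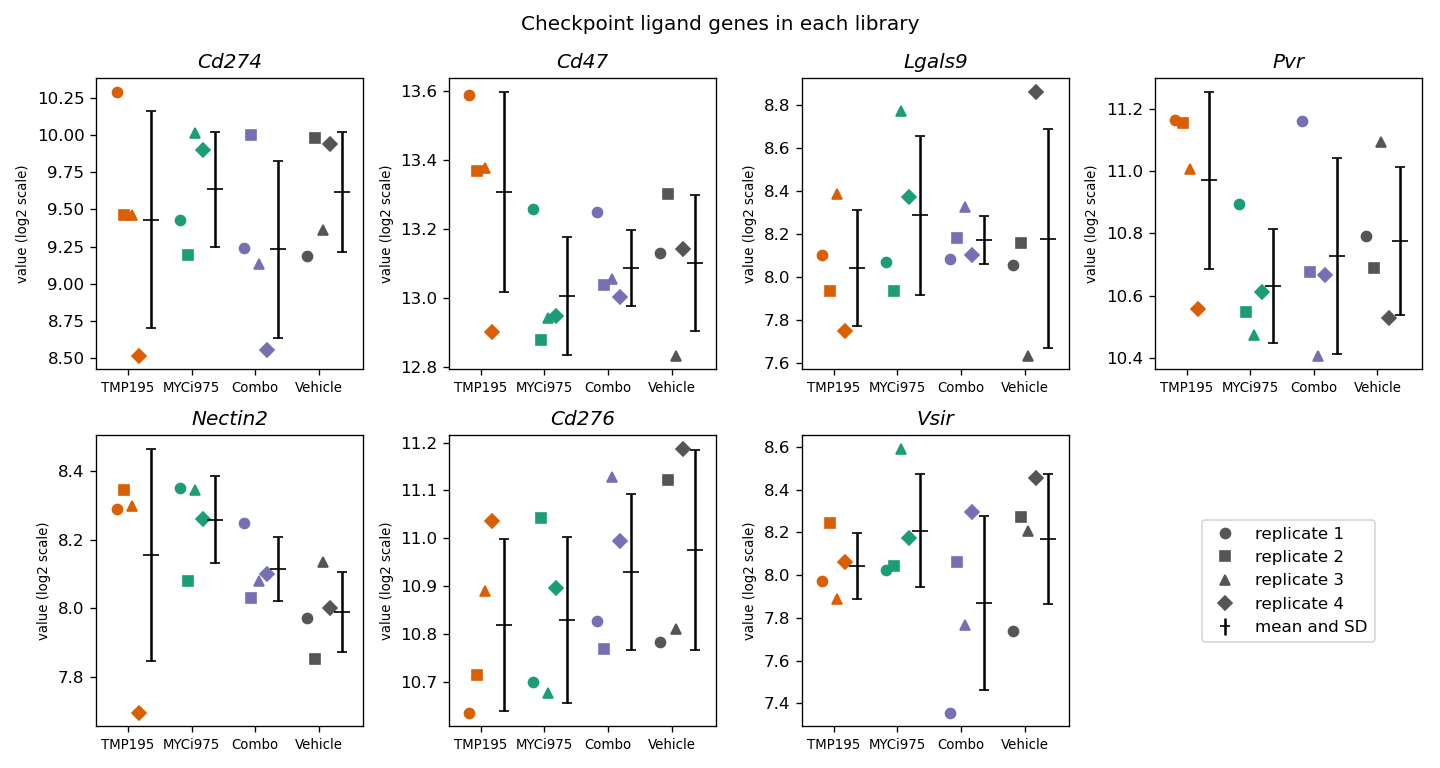
Value of each ligand gene in each library on the deposited log2 scale, with symbols for the replicate number and a bar for the mean and SD of 4 libraries; the vertical axes differ between panels and do not start at 0. Groups overlap in every panel, and Cd274 spreads over the widest range, from 8.51 to 10.29, both ends within TMP195.

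Cd274 (ENSMUSG00000016496.8, chromosome 19), the PD-L1 gene, varied more between libraries of a group than between groups. It measured 10.29, 9.46, 9.46 and 8.51 in the TMP195 libraries 1 to 4, 9.43, 9.19, 10.01 and 9.90 in MYCi975, 9.24, 9.996, 9.13 and 8.56 in Combo, and 9.19, 9.98, 9.36 and 9.94 in Vehicle. The highest and the lowest of the 16 values both came from TMP195, and 2 of 4 Combo libraries lay below all Vehicle libraries while 1 lay above all of them. The group means were 9.43 ± 0.73 in TMP195, 9.63 ± 0.39 in MYCi975, 9.23 ± 0.59 in Combo and 9.62 ± 0.40 in Vehicle (SD, n = 4 each). The difference from Vehicle was -0.18 in TMP195 (95% confidence interval -0.89 to 0.52), 0.02 in MYCi975 (-0.68 to 0.72) and -0.39 in Combo (-1.09 to 0.32), with a standard error (SE) of 0.33 in each. The limma adjusted p was 0.978 in TMP195, 0.999 in MYCi975 and 0.987 in Combo. No neighbours in the order MYCi975, Vehicle, TMP195, Combo differed beyond their spread. The Combo difference was -0.16 without Combo replicate 4, -0.64 without Combo replicate 2 and -0.05 without the libraries numbered 4 of all groups. Without TMP195 replicate 4 the TMP195 difference was 0.12, and with the leukocyte marker mean as a covariate it was -0.81 (SE 0.30, limma adjusted p = 0.999). This marker mean was measured after treatment, so values adjusted for it, here and below, are not cleaner treatment differences.

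The within-group SD of Cd274 was 0.545, against a median of 0.222 over all tested genes. It exceeded the SD of 96.3% of tested genes and of 97.0% of the 2255 genes whose mean lay within 0.5 log2 units of its own. Over all 16 libraries it ranged over 1.77 log2 units, a ratio of 3.42. The other ligand genes ranged over 0.55 (Cd276) to 1.24 (Lgals9 and Vsir) log2 units.

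Cd47 (ENSMUSG00000055447.20, chromosome 16), which codes for the ligand of SIRP alpha, measured 13.59, 13.37, 13.38 and 12.90 in TMP195, 13.26, 12.88, 12.94 and 12.95 in MYCi975, 13.25, 13.04, 13.06 and 13.00 in Combo, and 13.13, 13.30, 12.83 and 13.14 in Vehicle. In TMP195, 3 of 4 libraries lay above every Vehicle library and replicate 4 lay below 3 of them. The difference from Vehicle was 0.21 in TMP195 (SE 0.14, interval -0.09 to 0.50, limma adjusted p = 0.945), -0.09 in MYCi975 (interval -0.39 to 0.20) and -0.01 in Combo (interval -0.31 to 0.28). The TMP195 difference was 0.34 without TMP195 replicate 4, 0.11 without TMP195 replicate 1 and 0.12 without Vehicle replicate 3. The Combo value took the opposite sign under both quantile normalisation and median centring, at 0.01. With the leukocyte marker mean as a covariate the TMP195 difference was 0.09 (SE 0.16), and this marker mean was itself 6.95 to 8.30 in TMP195, against 6.60 to 7.05 in Vehicle.

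Lgals9 (ENSMUSG00000001123.16, chromosome 11), the galectin-9 gene, measured 8.10, 7.93, 8.38 and 7.75 in TMP195, 8.07, 7.94, 8.77 and 8.37 in MYCi975, 8.08, 8.18, 8.33 and 8.10 in Combo, and 8.06, 8.16, 7.63 and 8.86 in Vehicle. Vehicle held both the lowest and the highest library, and every treated library lay between them. The difference from Vehicle was -0.14 in TMP195 (interval -0.61 to 0.34), 0.11 in MYCi975 (-0.37 to 0.59) and -0.01 in Combo (-0.48 to 0.47), each with an SE of 0.23. Combo libraries were the most alike, with an SD of 0.11, against 0.51 in Vehicle.

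The TIGIT ligand genes Pvr and Nectin2 both lie on chromosome 7. Pvr (ENSMUSG00000040511.15) measured 11.16, 11.16, 11.01 and 10.56 in TMP195, 10.89, 10.55, 10.47 and 10.61 in MYCi975, 11.16, 10.68, 10.41 and 10.67 in Combo, and 10.79, 10.69, 11.10 and 10.53 in Vehicle. Of the TMP195 libraries, 2 lay above all Vehicle libraries, and TMP195 replicate 4 lay next to the lowest Vehicle library. Its difference from Vehicle was 0.20 in TMP195 (SE 0.17, interval -0.16 to 0.55, limma adjusted p = 0.959), -0.14 in MYCi975 (interval -0.50 to 0.21) and -0.05 in Combo (interval -0.41 to 0.31). The TMP195 difference was 0.33 without TMP195 replicate 4, 0.30 without Vehicle replicate 3 and 0.11 without Vehicle replicate 4.

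Nectin2 (ENSMUSG00000062300.15) measured 8.29, 8.35, 8.30 and 7.69 in TMP195, 8.35, 8.08, 8.35 and 8.26 in MYCi975, 8.25, 8.03, 8.08 and 8.10 in Combo, and 7.97, 7.85, 8.14 and 8.001 in Vehicle. All 4 MYCi975 and all 4 Combo libraries lay above the Vehicle mean, and 3 of 4 MYCi975 libraries lay above every Vehicle library. The TMP195 group had 3 libraries above all Vehicle libraries and 1, replicate 4, below all of them. The MYCi975 difference of 0.27 (SE 0.14, interval -0.03 to 0.57) had the smallest p of any ligand gene in any comparison, 0.0741 before adjustment and 0.999 after it with limma. The difference was 0.17 in TMP195 (interval -0.13 to 0.46) and 0.13 in Combo (interval -0.17 to 0.42). The TMP195 difference was 0.32 without TMP195 replicate 4, 0.10 without TMP195 replicate 2 and 0.049 with the leukocyte marker mean as a covariate. The Combo difference was 0.08 without Combo replicate 1 or without Vehicle replicate 2. Across the 27 other settings and left-out libraries tried, the MYCi975 difference stayed between 0.22 and 0.33, with limma adjusted p from 0.847 to 1. Many of these settings, such as other filters or left-out TMP195 and Combo libraries, cannot move this difference.

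Cd276 (ENSMUSG00000035914.12, chromosome 9), the B7-H3 gene, had the narrowest range of the ligand genes. It measured 10.64, 10.71, 10.89 and 11.04 in TMP195, 10.70, 11.04, 10.68 and 10.90 in MYCi975, 10.83, 10.77, 11.13 and 10.99 in Combo, and 10.78, 11.12, 10.81 and 11.19 in Vehicle. The Vehicle mean was the highest of the 4 group means, and 2 TMP195, 2 MYCi975 and 1 Combo library lay below all Vehicle libraries. The difference from Vehicle was -0.16 in TMP195 (interval -0.43 to 0.11, limma adjusted p = 0.951), -0.15 in MYCi975 (-0.42 to 0.12) and -0.05 in Combo (-0.32 to 0.23), with an SE of 0.13 in each. The TMP195 difference was -0.0957 without TMP195 replicate 1, -0.0866 without Vehicle replicate 4 and -0.0107 with the leukocyte marker mean as a covariate. The MYCi975 difference was -0.0961 without MYCi975 replicate 3, -0.0977 without Vehicle replicate 2 and -0.0761 without Vehicle replicate 4.

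Vsir (ENSMUSG00000020101.15, chromosome 10), the VISTA gene, measured 7.97, 8.25, 7.89 and 8.06 in TMP195, 8.02, 8.04, 8.59 and 8.17 in MYCi975, 7.35, 8.06, 7.76 and 8.30 in Combo, and 7.74, 8.27, 8.21 and 8.45 in Vehicle. The lowest library was Combo replicate 1 and the highest was MYCi975 replicate 3. The difference from Vehicle was -0.13 in TMP195 (interval -0.54 to 0.29), 0.04 in MYCi975 (-0.38 to 0.46) and -0.30 in Combo (-0.72 to 0.12, limma adjusted p = 0.987), with an SE of 0.20 in each. Without Combo replicate 1 the Combo difference was -0.13.

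**Figure D2:**
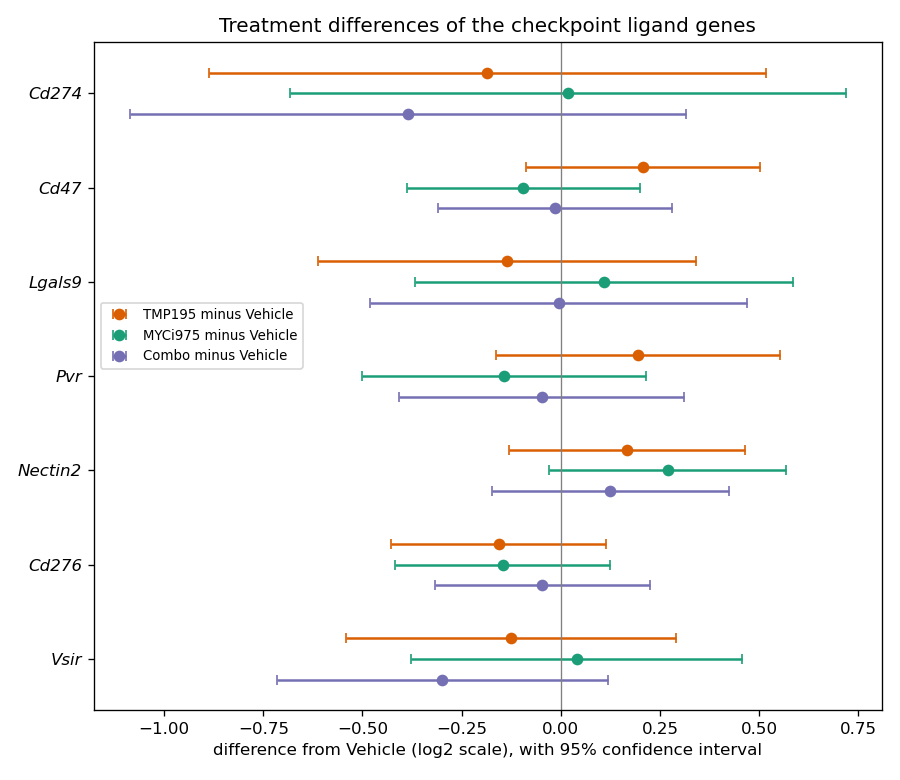
Difference of each ligand gene from Vehicle on the log2 scale (horizontal axis), with its 95% confidence interval from limma, for TMP195, MYCi975 and Combo; the grey line marks 0. Every interval crosses 0, and those of Cd274 are the widest, from -1.09 to 0.32 in Combo.

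Combo was then set against each single compound. With limma 0 of 7 ligand genes passed in Combo against MYCi975 or in Combo against TMP195, where 0% of tested genes passed. At an unadjusted p under 0.05 the counts were also 0 of 7, against 2.32% of tested genes for Combo against MYCi975 and 5.33% for Combo against TMP195. The interaction, Combo minus MYCi975 minus TMP195 plus Vehicle, asks whether the compounds add up on the log2 scale. It passed for 0 of 7 ligand genes and for 0% of tested genes, and at an unadjusted p under 0.05 for 0 of 7, against 3% of tested genes. The interaction was -0.31 for Nectin2 (SE 0.20), 0.26 for Cd276 (SE 0.18), -0.22 for Cd274 (SE 0.47) and -0.21 for Vsir (SE 0.28). It was -0.13 for Cd47 (SE 0.20), -0.10 for Pvr (SE 0.24) and 0.02 for Lgals9 (SE 0.32), with a limma adjusted p of 1 for all 7. These standard errors are larger than those against Vehicle because the value combines 4 group means. The sign for Cd274 turned to 0.60 (SE 0.41) with the leukocyte marker mean as a covariate.

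Cd274 followed the interferon-induced and class I antigen presentation genes from library to library, also with the group means taken out. The relations below to these 2 lists were chosen after the values had been seen, and p-values were adjusted over 7 genes within a list. Cd274 tracked the mean of 10 class I genes, such as the heavy chain gene H2-K1 and the transporter gene Tap1 (Pearson's r = 0.922, permutation p = 1e-05, the smallest that 100000 resamples can give, adjusted p = 7e-05, n = 16). Spearman's rho was 0.918 (permutation p = 1e-05). Without TMP195 replicate 4 and Vehicle replicate 4, the libraries farthest from the median, r was 0.927. It was 0.916 with the group means taken out and 0.882 without the 4 libraries numbered 4.

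For the mean of 22 interferon-induced genes, Cd274 gave r = 0.823 (permutation p = 8e-05, adjusted p = 0.00056) and rho = 0.756 (permutation p = 0.00117, adjusted p = 0.00409). Without MYCi975 replicate 3 and Vehicle replicate 4 r was 0.838, with the group means taken out 0.831, and without the libraries numbered 4 0.696. Lgals9 followed the same list, with r = 0.809 (permutation p = 0.00019, adjusted p = 0.000665) and rho = 0.776 (permutation p = 0.00067). Its r was 0.662 without the same 2 libraries, 0.818 with the group means taken out and 0.802 without the libraries numbered 4.

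With class I genes the relation of Lgals9 was r = 0.651 (permutation p = 0.00621, adjusted p = 0.0217) and rho = 0.606 (permutation p = 0.0147, adjusted p = 0.0515). It did not pass without TMP195 replicate 4 and Vehicle replicate 4, where r was 0.419 (adjusted permutation p = 0.266). With the group means taken out r was 0.698 (adjusted permutation p = 0.00962). The other 5 ligand genes passed with neither list, with r from -0.27 (Pvr) to 0.35 (Vsir) for interferon-induced genes and from -0.20 (Cd276) to 0.44 (Nectin2) for class I genes. Libraries of the same replicate number shared some variation, so libraries were also permuted only within a number, a test added after seeing the data. The adjusted permutation p was then 0.00021 for Cd274 with class I genes, 0.00843 for both Cd274 and Lgals9 with interferon-induced genes, and 0.0808 for Lgals9 with class I genes. With the means of each number taken out first, it was 0.00021, 0.0098 and 0.0446 for the same relations. The 2 list means share variation with each other (r = 0.809), so these relations are not independent. Class I genes have near-identical copies between which reads may have been divided, so single values of H2-K1 and H2-D1 are uncertain.

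**Figure D3:**
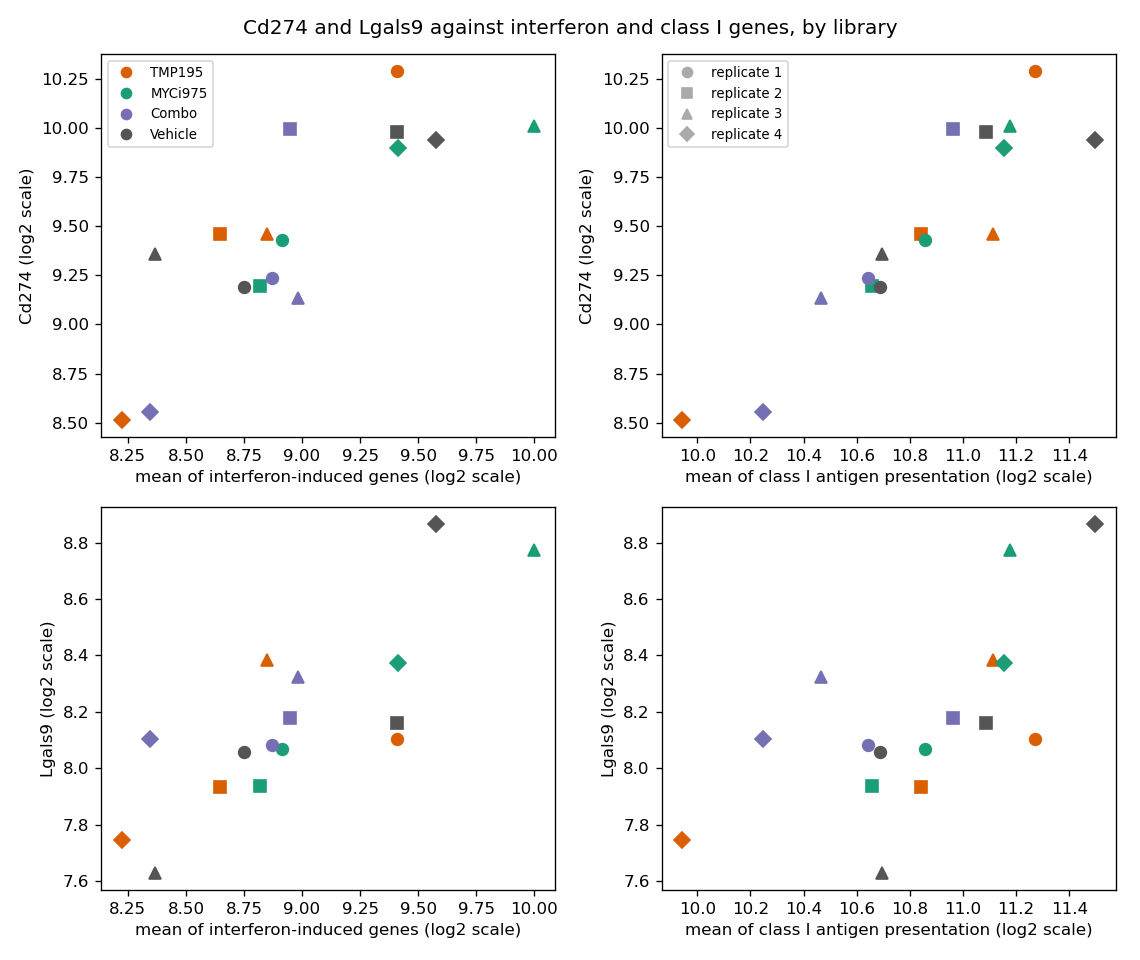
Cd274 (top) and Lgals9 (bottom) against the mean of 22 interferon-induced genes (left) and of 10 class I presentation genes (right), all on the deposited log2 scale; each point is 1 library, coloured by treatment and shaped by replicate number. Cd274 rises with class I genes (r = 0.922) with libraries of all 4 groups mixed along the trend.

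The libraries at the ends of this trend were not those of a single treatment. TMP195 replicate 1 had the highest Cd274 (10.29) with a class I mean of 11.27 and an interferon-induced mean of 9.41. TMP195 replicate 4 had the lowest Cd274 (8.51), with a class I mean of 9.94 and an interferon-induced mean of 8.22, the lowest of all libraries for both. Combo replicate 4 (8.56) lay next to it, at 10.25 and 8.34. MYCi975 replicate 3 had the highest interferon-induced mean (10.001) and a Cd274 of 10.01, and Vehicle replicate 4 had the highest class I mean (11.50) and a Cd274 of 9.94. With the interferon-induced mean as a covariate, chosen after seeing the data, the SE of the Cd274 differences fell to 0.21, against 0.33 without it. The differences from Vehicle were then 0.04 in TMP195, -0.22 in MYCi975 and -0.16 in Combo. The fall in SE follows from the relation given above and is no further evidence for it. The covariate was measured after treatment, so these are not cleaner treatment differences.

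All 22 interferon-induced genes correlated positively with Cd274 and all 22 with Lgals9, but different members lay closest to each. For Cd274 18 of 22 were among the 5% of tested genes most like it, and for Lgals9 21 of 22. All 10 class I genes were in that 5% for Cd274, and 7 of 10 for Lgals9. The guanylate-binding protein genes, which interferon gamma induces strongly, were closest to Cd274, with r of 0.940 for Gbp2, 0.935 for Gbp7, 0.928 for Gbp5 and 0.926 for Gbp3, against 0.585, 0.678, 0.689 and 0.684 with Lgals9. Cxcl9, Cxcl10, Ifit2 and Zbp1 were also closer to Cd274, which makes 8 of 22. The other 14 were closer to Lgals9, such as Oasl2 (0.862 with Lgals9 and 0.728 with Cd274), Irf7 (0.761 and 0.385), Ifit1 (0.757 and 0.535) and Mx2 (0.564 and 0.213). These genes were picked after their values were seen, and the difference between both sets of correlations was not tested.

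In the receptor pathway that leads to Cd274, the transcription factor gene Irf1 had r = 0.695 with Cd274 and the kinase gene Jak2 0.704, while the receptor genes Ifngr1 and Ifngr2 had 0.179 and 0.323. Nlrc5, the transactivator of class I genes, had 0.914. Nlrc5 measured 11.28, 10.82, 10.89 and 9.44 in TMP195, 10.73, 10.30, 11.44 and 10.95 in MYCi975, 10.13, 10.75, 9.69 and 9.58 in Combo, and 10.14, 11.02, 10.69 and 11.39 in Vehicle. Its lowest libraries, TMP195 replicate 4 and Combo replicate 4, were also the lowest for Cd274.

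For each ligand gene the 3 tested genes with the highest Pearson's r over the 16 libraries were taken as a description. For Cd274 these were the interferon-inducible GTPase genes Ifi47 (0.958), Iigp1 (0.957) and Gbp4 (0.955). For Lgals9 they were the complement protease gene C1ra (0.874) and the oligoadenylate synthetase family genes Oas1a (0.873) and Oasl2 (0.862). For Pvr they were Ereg (0.887), a ligand of the EGF receptor, Ptgs2 (0.886), the inducible cyclooxygenase, and Odc1 (0.884), the ornithine decarboxylase. For Cd276 they were Pclaf (0.902), a PCNA-binding factor, Amotl1 (0.875) and Fancb (0.872), a member of the Fanconi anaemia complex. For Cd47 they were Rab11a (0.902), Carnmt1 (0.899) and the repressor gene Rest (0.888), for Nectin2 they included Gipc1 (0.822) and Npdc1 (0.812), and for Vsir Prx (0.800), Kifc5b (0.795) and Ptpn23 (0.791).

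Among the ligand genes themselves, 0 of 21 pairs correlated past the threshold after adjustment over the pairs. The lowest adjusted permutation p was 0.106, shared by Nectin2 with Cd276 (r = -0.657), Cd47 with Pvr (r = 0.605) and Pvr with Cd276 (r = -0.604). Spearman's rho was -0.647 (adjusted permutation p = 0.18) for Nectin2 with Cd276, 0.559 for Cd47 with Pvr and -0.559 for Pvr with Cd276 (adjusted permutation p = 0.186 for both). Cd274 and Lgals9, which both followed the interferon-induced genes, had r = 0.510 with each other (adjusted permutation p = 0.222).

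Several of these ligands are also made by leukocytes, so each was set against the mean of 7 tested leukocyte markers, such as Ptprc and Coro1a. With free permutation, no ligand gene passed over all 16 libraries. The strongest were Cd276 (r = -0.526), Cd274 (r = 0.524) and Cd47 (r = 0.519), each with an adjusted permutation p of 0.0875, and rho of -0.350, 0.576 and 0.276 (adjusted permutation p = 0.373, 0.148 and 0.373). Without TMP195 replicates 1 and 2, the libraries farthest from the median, r was -0.278 for Cd276, 0.401 for Cd274 and -0.075 for Cd47. Without the 4 libraries numbered 4, Cd274 (r = 0.737, adjusted permutation p = 0.04) and Cd276 (r = -0.675, adjusted permutation p = 0.0464) passed. With libraries permuted only within a replicate number, Cd276 passed over all 16 libraries (adjusted permutation p = 0.0274) and Cd274 did not (adjusted permutation p = 0.052). With the means of each number also taken out, both had an adjusted permutation p of 0.052. Lgals9, Pvr, Nectin2 and Vsir had r from 0.19 (Lgals9) to 0.35 (Pvr and Nectin2). Without TMP195 replicates 1 and 2, r rose to 0.599 for Vsir and 0.544 for Lgals9 (adjusted permutation p = 0.162 for both). In that setting r was 0.139 for Nectin2 and -0.189 for Pvr. With the group means taken out, no ligand gene passed, and Cd274 came closest (r = 0.710, adjusted permutation p = 0.0615). With macrophage and monocyte markers instead, r was 0.22 for Cd274 and 0.49 for Cd47, and 0 of 7 passed.

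**Figure D4:**
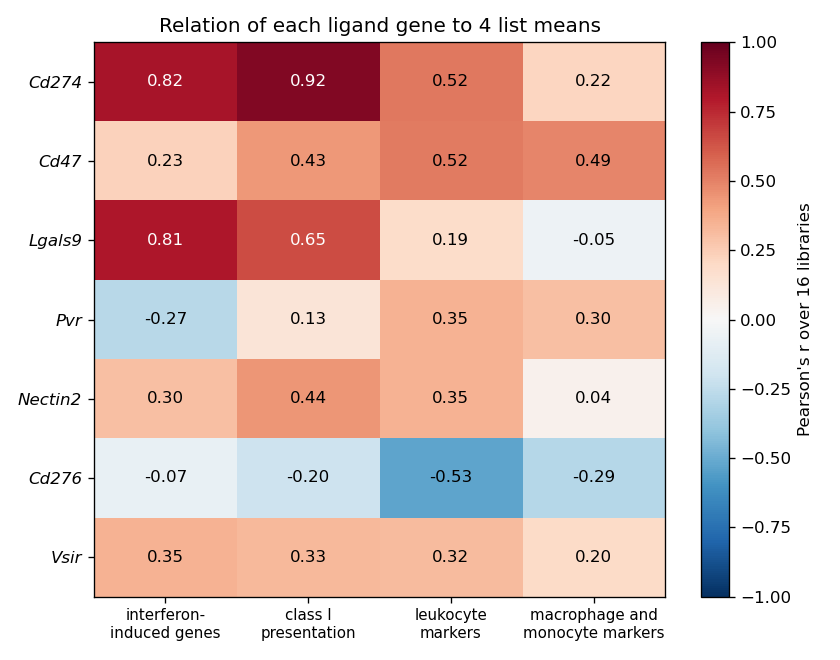
Pearson's r over 16 libraries of each ligand gene (rows) with the mean of 4 gene lists (columns), with colour from -1 (blue) to 1 (red). The high values are those of Cd274 and Lgals9 with interferon-induced genes (0.82 and 0.81) and of Cd274 with class I genes (0.92).

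The genes around the ligands were read from lists of their receptors, regulators and processing factors, and 0 genes of any list passed in any comparison. Over all tested genes the median difference from Vehicle was -0.01 in each treatment. The 10 class I genes lay below Vehicle in 10 of 10 in TMP195 (median -0.20), 7 of 10 in MYCi975 (median -0.03) and 10 of 10 in Combo (median -0.43). The TMP195 count rested on replicate 4, without which 2 of 10 lay below Vehicle (median 0.15), and without Vehicle replicate 4 it was 6 of 10 (median -0.03). In MYCi975, 10 of 10 lay below without MYCi975 replicate 3 or Vehicle replicate 1, and 2 of 10 without Vehicle replicate 4. In Combo 10 of 10 lay below with any single library left out, with medians from -0.56 to -0.18, and also without the libraries numbered 4 (median -0.10). Each of the 10 class I genes had r from 0.67 to 0.92 with Cd274, so they vary together and the counts are not separate evidence. In Combo the smallest p values were those of Nlrc5 (-0.77, SE 0.36), H2-K1 (-0.55, SE 0.31) and the light chain gene B2m (-0.51, SE 0.31), with a limma adjusted p of 0.987 for each. Of the 22 interferon-induced genes, 20 lay below Vehicle in TMP195 (median -0.22), 4 in MYCi975 (median 0.28) and 18 in Combo (median -0.25). These counts moved with 1 library left out, and the sign of the median then turned only in MYCi975. In TMP195 the count was 14 (median -0.06) without TMP195 replicate 4 and 13 (median -0.05) without Vehicle replicate 4. It was 21 (median -0.43) without Vehicle replicate 3. In MYCi975 it was 13 (median -0.04) without MYCi975 replicate 3, and 10 (median 0.04) without Vehicle replicate 3. It was 0 (median 0.38) without Vehicle replicate 4. In Combo it was 17 (median -0.09) without Combo replicate 4, 12 (median -0.15) without Vehicle replicate 2 and 14 (median -0.08) without Vehicle replicate 4. It was 21 (median -0.52) without Vehicle replicate 3. Without the libraries numbered 4, 5 of 22 lay below Vehicle in TMP195 and 5 of 22 in Combo. In MYCi975 all 6 tested neutrophil markers lay above Vehicle (median 0.46), and their mean ran from 6.33 to 8.16, highest in replicate 3, against 6.38 to 6.84 in Vehicle. In TMP195 5 of these 6 lay above Vehicle (median 0.64), with a mean between 6.75 and 7.58. Their part in the interferon values was not tested. In MYCi975 the smallest p values belonged to Zbp1 (0.50, SE 0.21), Rsad2 (0.64, SE 0.29) and Mx2 (0.47, SE 0.23), with a limma adjusted p of 0.999 for each.

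Of the 13 genes of the interferon gamma pathway and its brakes, 6 lay below Vehicle in TMP195, 5 in MYCi975 and 10 in Combo, with medians of 0.01, 0.04 and -0.08. Without the libraries numbered 4 it was 2 in TMP195, 5 in MYCi975 and 6 in Combo. The TMP195 count was 9 without TMP195 replicate 1 and 4 without TMP195 replicate 4, and the MYCi975 count was 9 without Vehicle replicate 3. In Combo these were led by Irf1 (-0.58, SE 0.34), the feedback inhibitor Socs1 (-0.27, SE 0.17) and the receptor gene Ifngr2 (-0.22, SE 0.16). Irf1 measured 12.81 in Vehicle replicate 4, against 11.15 to 11.52 in the other Vehicle libraries and 10.76 to 11.39 in Combo. Of the receptors of these ligands, 4 of 8 were tested. Sirpa, the CD47 receptor gene of myeloid cells, differed by 0.86 in TMP195 (SE 0.31, limma adjusted p = 0.945), where macrophage and monocyte markers averaged 6.54 to 7.93, against 6.27 to 6.88 in Vehicle. The part of these markers in the Sirpa value was not tested.

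Of 10 further checkpoint ligands and surface enzymes, 5 lay below Vehicle in TMP195 (median -0.01), 6 in MYCi975 (median -0.06) and 8 in Combo (median -0.18). The TMP195 median was 0.15 without TMP195 replicate 4, and the MYCi975 count was 4 (median 0.03) without MYCi975 replicate 3. Lgals3, the galectin-3 gene, differed by -0.39 in MYCi975 (SE 0.15) and by -0.52 in Combo (SE 0.15, unadjusted p = 0.00259, limma adjusted p = 0.987), and Icosl, the ligand gene of the costimulatory receptor ICOS, by -0.29 in Combo (SE 0.13). Hmgb1, whose protein binds TIM-3, had differences of -0.25 (TMP195), -0.20 (MYCi975) and -0.23 (Combo), with an SE of 0.15 in each. Of 11 genes for the stability and processing of checkpoint ligands, 9 lay below Vehicle in TMP195, 10 in MYCi975 and 7 in Combo, with medians of -0.05, -0.05 and -0.03. Without Vehicle replicate 2 the counts were 5 in TMP195, 6 in MYCi975 and 4 in Combo. Without MYCi975 replicate 3 the MYCi975 count was also 6, and without TMP195 replicate 4 the TMP195 count was 6. These lists were led by Spop in TMP195 (-0.21, SE 0.14), by Cmtm4 in MYCi975 (-0.21, SE 0.13) and by the sheddase gene Adam17 in Combo (-0.26, SE 0.19). Of the TNF and TNF receptor families, the receptor gene Cd40 differed by 0.47 in MYCi975 (SE 0.25) and 0.36 in Combo (SE 0.25). Tnfsf9, the 4-1BB ligand gene, differed by -0.19 (SE 0.17) and -0.25 (SE 0.17). The MYCi975 median of these 2 genes was 0.14, 0.02 without MYCi975 replicate 4 and -0.07 without the libraries numbered 4.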

How the data were processed

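The deposited table holds variance-stabilised values close to a log2 scale for 24334 mouse genes in 16 libraries, made by the authors. The submitters' processing notes name Salmon with no version and the build hg38, although the identifiers are mouse. Per the labels, RNA was isolated on RNeasy columns and libraries came from a stranded total RNA kit. The tool behind the stabilised values is not given in the sources used here. Depth per library is unknown, so no counting interval is given, and differences of low genes are compressed. Symbols matched 95.13% of identifiers.

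Groups follow the labels. Genes exceeding the lowest value by 1 log2 unit in 4 or more libraries (15715) were fitted with limma 3.58.1 in R 4.3.3, with 1 mean per group over all 16 libraries, an intensity trend and two-sided Benjamini-Hochberg adjusted p-values per comparison (threshold 0.05). Relations across libraries used two-sided permutation tests with 100000 resamples in Python 3.11.15. Named genes were all ligand genes against Vehicle and in the interaction, for Combo against a single compound those with an unadjusted p under 0.05, the 3 genes most like each, and up to 3 genes with the smallest p per list. Some genes that this rule takes are left out of the text. The interferon pathway genes and single interferon-induced genes given with their correlations to Cd274 and Lgals9, and Nlrc5 by library, fall outside this rule and were chosen after their values were seen. The ligand genes and lists were chosen with earlier results of these data known. Other filters, normalisations, covariates, a replicate block and left-out libraries were tried. Pdcd1lg2 is not analysed here. Promoter letters are from RefSeq (GRCm38.p6). The first of 2 windows was used for Cd47.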

Additional observations from a re-analysis of the deposited data

Results flagged for a closer look

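Within the 4 TMP195 libraries, Nectin2 in replicate 4 (7.694) lay far below the others, which ran from 8.288 to 8.346. Without this library the TMP195 difference from Vehicle was 0.32, against 0.17 with it. Replicate 4 was also the lowest TMP195 library for Cd274, Cd47, Lgals9 and Pvr. In Vehicle, the mean of the macrophage and monocyte markers was 6.876 in replicate 4, while the other 3 libraries ran from 6.273 to 6.339. Of 44 groups of 4 libraries examined, these 2 exceeded Dixon's critical value for an outlying library, and chance alone gives about 1 in 20.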

How the results depend on the processing

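No ligand gene was called under any alternative: over 749 values of 28 results the lowest limma adjusted p was 0.788. Of these values 691 kept their direction and 58 turned, in 14 of the 28 results. Part of the settings cannot move a difference of group means: other filters, no intensity trend, the replicate block and the compared groups only. Nor can leaving out libraries of groups not compared. The 691 values include these, so their number overstates how stable the directions were. The reported fits did not take the replicate numbers as pairs, although libraries of the same number shared some variation, which stays in the spread of those fits. After each gene's group mean was taken out, libraries of the same number correlated from -0.24 to 0.43 between groups. Of 24 such pairs 15 were over 0.1, and the same number was the best match among 4 libraries in 16 of 24. All 6 pairs numbered 1 (0.20 to 0.43) and all 6 numbered 4 (0.17 to 0.39) were over 0.1, against 2 of 6 numbered 2 and 1 of 6 numbered 3. With the replicate block 0 genes were called, and Nectin2 in MYCi975 minus Vehicle was 0.27 (limma adjusted p = 0.948). The balanced block cannot move that difference, only its SE. Depth is unknown, 4 libraries a group limit the precision, and 1 library can turn the sign of small differences, whose cause was not tested.

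Of all genes, 0 were called in the reported fits. In Combo minus Vehicle 1 was called with the compared groups only. In Combo minus TMP195 it was 1 without the intensity trend, 1 without TMP195 replicate 1 and MYCi975 replicate 3, and 2 with the interferon covariate. Leaving out 1 library gave 0 to 2 genes in TMP195 minus Vehicle (2 without TMP195 replicate 3), 0 to 1 in MYCi975 minus Vehicle and in Combo minus MYCi975 (1 without MYCi975 replicate 2), and 0 to 2 in Combo minus TMP195 (2 without TMP195 replicate 3, 1 without Combo replicate 4).

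Signs turned as follows. Without all libraries numbered 4, Cd274 was 0.23 and Lgals9 0.19 in TMP195 minus Vehicle, Cd47 0.0262, Lgals9 0.25 and Cd276 0.003 in Combo minus Vehicle, and Lgals9 -0.26 in the interaction. With the interferon covariate, chosen after seeing the data, Cd274 was 0.0407 and Lgals9 0.0059 in TMP195 minus Vehicle, Cd274 -0.22 and Lgals9 -0.0431 in MYCi975 minus Vehicle, Cd47 0.0372 and Lgals9 0.13 in Combo minus Vehicle, and Cd274 0.0207 in the interaction. With the leukocyte covariate, Cd274 was -0.0745 in MYCi975 minus Vehicle, Cd47 0.0028 and Lgals9 0.0319 in Combo minus Vehicle, and Cd274 0.60, Cd47 0.0195 and Vsir 0.0565 in the interaction. Without TMP195 replicate 1 and MYCi975 replicate 3, Cd274 was -0.11, Lgals9 -0.0524 and Vsir -0.0876 in MYCi975 minus Vehicle, and Cd274 0.19 in the interaction. Quantile normalisation gave 0.011 for Cd47 in Combo minus Vehicle and -0.0094 for Lgals9 in the interaction, and median centring 0.0134 for Cd47 and 0.0226 for Lgals9 in Combo minus Vehicle and -8e-04 for Lgals9 in the interaction.

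Leaving out 1 library at a time gave these ranges where a sign turned. In TMP195 minus Vehicle, Cd274 ran from -0.47 to 0.12 and Lgals9 from -0.32 to 0.0926. In MYCi975 minus Vehicle, Cd274 ran from -0.12 to 0.16, Lgals9 from -0.0729 to 0.34 and Vsir from -0.10 to 0.14. In Combo minus Vehicle, Cd47 ran from -0.10 to 0.0523, Lgals9 from -0.19 to 0.22, Pvr from -0.19 to 0.059 and Cd276 from -0.11 to 0.0242. In the interaction, Cd274 ran from -0.52 to 0.0676, Lgals9 from -0.21 to 0.20 and Pvr from -0.24 to 0.0074.

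Among the relations, those of Cd274 with class I genes (r from 0.882 to 0.940) and of Cd274 and Lgals9 with interferon-induced genes (from 0.696 to 0.858 and from 0.662 to 0.864) stayed past the threshold under every alternative tried. Lgals9 with class I genes fell to 0.419 without the 2 farthest libraries and to 0.439 without the libraries numbered 4, and ran from 0.540 to 0.709 with 1 library left out (0.589 without TMP195 replicate 4 and 0.540 without Vehicle replicate 4 missed the threshold). With leukocyte markers, Cd274 (0.737) and Cd276 (-0.675) passed without the libraries numbered 4, Cd47 (-0.075) and Pvr (-0.189) turned without the 2 farthest libraries, and Lgals9 was -0.050 with macrophage and monocyte markers. With interferon-induced genes, Vsir was -0.090 without the 2 farthest libraries and Cd276 ran from -0.264 to 0.138. With class I genes, Pvr ran from -0.006 to 0.274.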
